A study of Caenorhabditis elegans with 32 samples.

Results

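The wild-type (WT) hypoxia lineage of Caenorhabditis elegans comprised 8 of the 32 libraries of the series, namely those whose labels read WT, hypoxia and one of the generations P0, F1, F2 and F3, with 2 libraries in each generation. P0 worms were exposed as L4 larvae to 0.1% oxygen for 16 h at 20 °C and were then brought back to ambient oxygen of about 20%. F1, F2 and F3 were their descendants, and the labels do not say whether those worms met low oxygen themselves. Poly(A)-selected RNA of whole worms was sequenced, and the question was how the transcriptome of directly exposed worms differs from that of each later generation and of all 3 together. For comparison, WT worms under the label normoxia (P0, F1 and F3, 6 libraries) and hrde-1 mutants under the label hypoxia (P0 to F3, 8 libraries) were used. The HRDE-1 protein is a nuclear Argonaute that acts in the germline, and the labels do not name the mutant allele.

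Low oxygen is sensed in C. elegans through the prolyl hydroxylase EGL-9 and the transcription factor HIF-1, whose targets include genes of hydrogen sulfide and cysteine metabolism. Heat shock proteins, the unfolded protein responses and changes of fuel metabolism are further parts of the stress response. An L4 larva makes its sperm, builds the adult cuticle and then starts to make oocytes and yolk, and many of these genes are transcribed in short pulses. The labels give no developmental stage at harvest, no date and no batch, so a generation cannot be told apart from anything else that set its harvest off. RNA of whole worms also cannot tell apart fewer cells of a type from less RNA per cell.

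Totals of the 8 libraries ran from 10636796 to 16555982 estimated counts, and the 2 libraries of a generation correlated across all genes with Pearson's r between 0.996 and 0.997 on the log2(CPM + 1) scale. CPM are counts relative to the normalized size of each library. Genes are not independent replicates, so these coefficients only describe the libraries. No label says that the 2 libraries of a generation came from separate cultures, and p-values measure the spread between these samples, which may be technical. Calls were made at an adjusted p under 0.05 in edgeR's quasi-likelihood test over all 13315 genes tested, in a fit of the 8 libraries. An alternative fit took its estimate of the spread from 30 libraries of the series and is called the 30-library fit below. The hrde-1 transcript stood at 863 and 852 CPM in P0, 687 and 685 in F1, 703 and 791 in F2, and 718 and 686 in F3. Both P0 libraries were above all 6 later ones, with a log2 fold change of 0.27 ± 0.07 (SE, edgeR adjusted p = 0.0107). For hif-1 the levels were 165 and 164 CPM in P0, 134 and 140 in F1, 128.8 and 117 in F2, and 158 and 165 in F3, so that P0 and F3 overlapped. Its P0 level was higher than the mean of the later generations by 0.24 ± 0.07 on the log2 scale (SE, edgeR adjusted p = 0.0169). Neither gene was called in the 30-library fit, nor when one or the other P0 library was left out.

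Against the mean of F1, F2 and F3, 3491 genes (26.2%) differed in P0, of which 1327 (9.97%) were higher and 2164 (16.3%) lower. In 965 of the genes called higher (7.25% of those tested) both P0 libraries lay above all 6 later ones, and in 1783 of those called lower (13.4%) both lay below. By generation, 3830 genes (28.8%) differed from F1, 2708 (20.3%) from F2 and 2336 (17.5%) from F3. These comparisons share the P0 libraries. The count against all later generations was 1666 without P0 replicate 1, 1681 without P0 replicate 2, 1423 in the 30-library fit and 814 where F1 to F3 were taken as 1 group. The last fit counts differences among the later generations as spread. Without P0 replicate 1 and without P0 replicate 2 the counts were 2333 and 2439 against F1, 1421 and 1322 against F2, and 1213 and 1244 against F3. Without F2 replicate 1 and F2 replicate 2 the count against F2 was 1473 and 1362, and without F3 replicate 2 that against F3 was 1406.

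The genes highest in P0 were nearly silent in the descendants. For catp-2, which encodes a P-type ATPase of the sodium/potassium pump family (chromosome V, 4934706 to 4939085 in WBcel235), 34.1 and 62.3 CPM were found in P0, and 1 count in each of F1, F2 and F3. The ratio of P0 to the later generations was 1176, with an exact 95% counting interval from 401.5 to 5711 that covers counting error only. nhx-6, a sodium/proton exchanger gene (chromosome II, 1670829 to 1674401), had 51.7 and 62.6 CPM in P0, against at most 0.37 CPM in any later library and no count in F2. Its log2 fold change was 9.59 ± 0.27 (SE, edgeR adjusted p = 1.97e-09). comt-4, of the catechol-O-methyltransferase family (chromosome V, 2049217 to 2050185), had 43.4 and 43.2 CPM in P0 and between 0 and 0.858 CPM later, a log2 fold change of 7.09 ± 0.25. The rule that named these 3 genes required a call and both P0 libraries above all later ones, so that order was fixed by the choice. They, and the next gene, passed the filter for testing through P0 alone, where they were high. In the later generations the 3 genes were near the level of single counts. C02E7.10, whose start and end (chromosome V, 4932393 to 4933045, minus strand) leave 1660 bases to catp-2 on the plus strand, behaved alike in these libraries, with 10 and 11.8 CPM in P0 and 1 count in all 6 later libraries together.

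Further genes were lower but still measurable after P0. hsp-12.3, of the small heat shock protein family, had 13.6 and 14.9 CPM in P0, against 0.368 to 1.29 CPM later (log2 4.29 ± 0.24). The heme transporter gene hrg-1 had 20.1 and 19.3 CPM in P0 and 0.569 to 3.01 CPM later, a log2 fold change of 3.70 ± 0.23. hrg-7, which encodes a secreted heme signal, had 139.2 and 153 CPM in P0, 16.37 and 24.9 in F1, 7.73 and 5.31 in F2, and 11.2 and 15.1 in F3, with a log2 fold change of 3.59 ± 0.14. Both heme genes, whose choice required P0 above all later libraries, were lowest in F2. The lysozyme gene lys-7 stood at 86.4 and 108 CPM in P0, 5.27 and 4.47 in F1, 13.7 and 12.2 in F2, and 26 and 21 in F3 (log2 3.09 ± 0.11). Among the descendants its level was lowest in F1 and highest in F3. The DAF-16-regulated genes dod-3 and dod-21, the collagen gene col-41, the cytochrome P450 gene cyp-13A5 and pqn-60 had log2 fold changes from 3.02 to 3.73. They were also among the 12 highest of the genes with a class symbol, at least 5 CPM and no overlap.

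**Figure D1:**
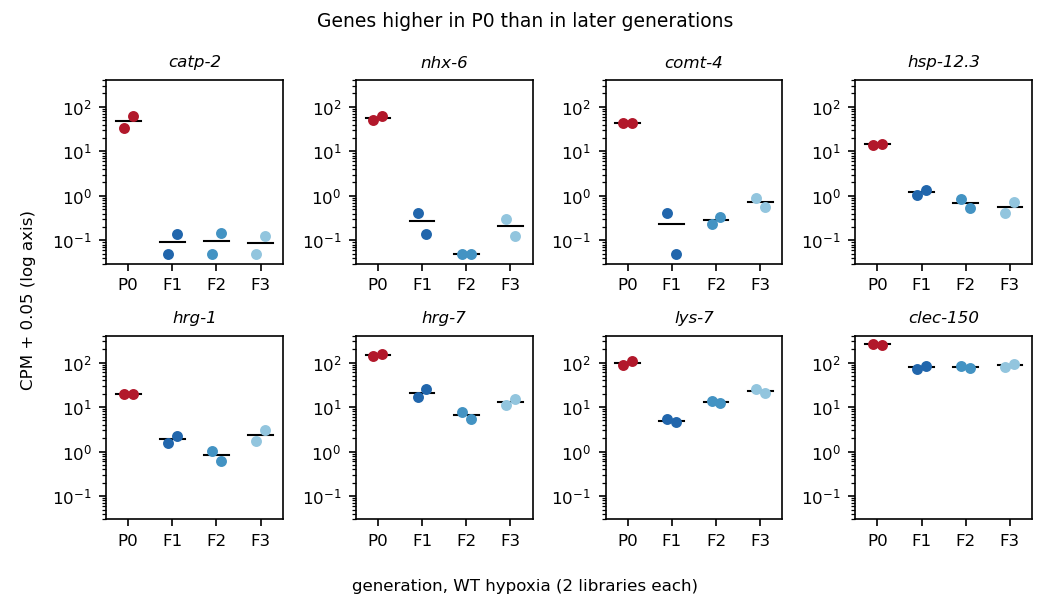
CPM + 0.05 on a log axis for 8 genes in each WT hypoxia library, by generation; points are libraries and bars are means of 2. In each panel both P0 points lie above all 6 later points, which was a condition of choice for all genes shown but clec-150. The levels of catp-2, nhx-6 and comt-4 drop to that of single counts.

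Of the 17 genes of the HIF-1 pathway tested, 7 were higher in P0 (9.97% of all genes were) and none lower, with a median log2 fold change of 0.35, against 0.00705 over all genes tested. Against F1, 5 were higher (9.77% of all genes were) and 2 lower (19%). Against F2, 5 were higher (9.22%) and none lower, and against F3, 2 were higher (4.13%) and none lower. cysl-2, a cysteine synthase-like gene that HIF-1 is known to induce, had 44.3 and 52.8 CPM in P0, 18.4 and 18.9 in F1, 10.5 and 12.2 in F2, and 22.9 and 22.7 in F3. Its log2 fold change was 1.52 ± 0.11 (edgeR adjusted p = 1.03e-06), and the groups did not overlap. Of 16 genes of hydrogen sulfide and cysteine metabolism 5 were higher and 3 lower. The cystathionine gamma-lyase gene cth-1 (log2 2.08 ± 0.22), the cysteine dioxygenase gene cdo-1 (1.03 ± 0.16) and cysl-3 (0.98 ± 0.15) were higher with no overlap. The cystathionine beta-synthase gene cbs-2 was lower (-2.64 ± 0.45), with 0.505 and 1.43 CPM in P0, 19.6 and 16.7 in F1, 3.02 and 0.948 in F2, and 4.47 and 7.35 in F3, so that P0 and F2 overlapped. Of the HIF-1 list 2 genes were called higher without P0 replicate 1, 3 without P0 replicate 2 and 2 in the 30-library fit. Over P0, F1 and F3 alone, 2 of the 17 were higher in P0 and none lower under hypoxia (median 0.28), where 5.39% of all genes were higher, and 8 were higher and 3 lower in the normoxia lineage (median 0.59), where 29.3% of all genes were higher. cdo-1, for one, had 13.5 and 17 CPM in P0 normoxia and 4.66 to 9.35 CPM in F1 and F3 normoxia.

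Chaperone genes were mostly lower in P0 than later, and the size of the difference depended on the generation. Of 18 heat shock genes 13 were lower (16.3% of all genes were) and 2 higher, with a median log2 fold change of -0.55. Against F1, 15 of the 18 were lower (19% of all genes were) and 3 higher (9.77%), against F2, 12 (11.1%) and 4 (9.22%), and against F3, 4 (13.4%) and 1 (4.13%). The small heat shock gene hsp-16.41 had 48 and 52.5 CPM in P0, 339 and 185 in F1, 574 and 577 in F2, and 84.9 and 157 in F3. For hsp-16.1 the levels were 23.5 and 28.5 CPM in P0, 160 and 138 in F1, 208 and 302 in F2, and 33.3 and 43.5 in F3. The inducible gene hsp-70 had 52.8 and 45.8 CPM in P0, 544 and 382 in F1, 311 and 596 in F2, and 53.9 and 78.8 in F3. P0 and F3 were low and F1 and F2 high in all 3 genes, and P0 lay below every later library. hsp-16.1 shares reads with the near-identical hsp-16.11, and hsp-16.48 and hsp-16.49 have the same counts, so values of single copies are uncertain. Against F3 alone, the log2 fold change of P0 was -0.42 ± 0.27 for hsp-70 (edgeR adjusted p = 0.327) and -0.56 ± 0.18 for hsp-16.1 (0.0536), and neither was called. hsp-16.1 was called there by DESeq2 (adjusted p = 0.0219), with the replicate block (edgeR adjusted p = 0.0294), without F3 replicate 1 (edgeR adjusted p = 0.0176) and without a filter, as was hsp-70 without a filter (edgeR adjusted p = 0.000369). The transcript of the heat shock factor itself, hsf-1, was higher in P0 by 0.28 ± 0.06 (log2), but not in the 30-library fit, nor when one or the other P0 library was left out. In the 30-library fit 7 heat shock genes were lower, and 1 where F1 to F3 formed 1 group.

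Of 19 genes of the unfolded protein response of the endoplasmic reticulum (ER) 10 were lower in P0 (16.3% of all genes were) and 2 higher (9.97%). xbp-1, which encodes the transcription factor of this response, had 298 and 302 CPM in P0, 434 and 414 in F1, 465 and 465 in F2, and 407 and 404 in F3 (log2 -0.52 ± 0.06). The calreticulin gene crt-1 (-0.44 ± 0.09) and the protein disulfide isomerase gene pdi-6 (-0.51 ± 0.10) were also below all later libraries. The BiP chaperone gene hsp-4 followed another order, with 777 and 849 CPM in P0, 985 and 898 in F1, 1732 and 1907 in F2, and 629 and 657 in F3. It was thus lower in P0 than in F2 (log2 -1.16 ± 0.09) and higher than in F3 (0.34 ± 0.09), although the call against F3 was lost when any 1 of the 4 libraries was left out. In mitochondria, the chaperone genes hsp-6 (-0.54 ± 0.07) and hsp-60 (-0.45 ± 0.08) were the only 2 of 10 unfolded protein response genes called, both lower. That count was near the share over all genes, of which 16.3% were lower. The count of lower ER genes was 3 without P0 replicate 1, 4 without P0 replicate 2 and 4 in the 30-library fit, where hsp-4 and hsp-60 were not called, and that of higher ones 1, 0 and 0.

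The propionate shunt was low in P0. In worms this pathway breaks down propionate when vitamin B12 is scarce, and its first enzyme gene, acdh-1, had 9.02 and 9.91 CPM in P0, 217 and 220 in F1, 81 and 145 in F2, and 155 and 165 in F3. The log2 fold change of acdh-1 (chromosome I, 6497436 to 6499560) was -4.06 ± 0.21 (edgeR adjusted p = 9.39e-08), and P0 lay below every later library by a wide margin. hphd-1, the enzyme of a later step, had 22.4 and 23.4 CPM in P0, 139.3 and 174.7 in F1, 69.1 and 95.7 in F2, and 124 and 131 in F3 (-2.37 ± 0.14). The shunt genes ech-6 (-1.17 ± 0.09) and hach-1 (-0.53 ± 0.09) were lower as well, so that 4 members of the shunt itself were called. Of the whole list of 15 genes, which also holds the B12-dependent route, 7 were lower (16.3% of all genes were) and none higher (9.97%). In the 30-library fit 5 were lower, and 6 where F1 to F3 formed 1 group.

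In glycolysis and the respiratory chain most called genes were lower too. Of 19 glycolysis genes 9 were lower in P0 (16.3% of all genes were) and 1 higher, with gpd-2, a glyceraldehyde-3-phosphate dehydrogenase gene, at 190 and 186 CPM in P0 and 269 to 428 CPM later (log2 -0.85 ± 0.09). The hexokinase gene hxk-1 was the one called higher (0.29 ± 0.07), though not in the 30-library fit, nor when one or the other P0 library was left out. In the glyoxylate cycle, gluconeogenesis and storage sugar list, 5 of 15 genes were higher and 7 lower. The glyoxylate cycle gene icl-1 had 338 and 357 CPM in P0, 537 and 474 in F1, 656 and 555 in F2, and 1010 and 755 in F3, a difference of -0.89 ± 0.11 that was largest against F3. The gluconeogenesis gene pck-1 went the other way, at 163 and 181 CPM in P0 and 103 to 147 CPM later (0.52 ± 0.07). Of 37 nuclear-encoded respiratory chain genes 22 were lower and none higher (median -0.29). The mitochondrially encoded genes, 10 tested, gave 1 call. All 6 vitellogenin genes, which encode yolk proteins and share reads among copies, had negative log2 fold changes, and 5 were called. vit-4 had 9585 and 9156 CPM in P0, 13510 and 14240 in F1, 21070 and 19830 in F2, and 17450 and 17110 in F3. In the 30-library fit 4 glycolysis genes, 10 respiratory chain genes and 0 vitellogenin genes were lower in P0. The counts without P0 replicate 1 and without P0 replicate 2 were 4 and 4 for glycolysis and 8 and 7 for the respiratory chain.

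Of the 50 gene lists, both sperm lists had the largest median differences in size between P0 and all later generations together. Of 35 major sperm protein genes, 30 were tested, and 29 of them were lower in P0 (16.3% of all genes were), with a median log2 fold change of -2.65. Summed over the list, they made up 119.7 and 128.9 CPM in P0, 994 and 1165 in F1, 554 and 460 in F2, and 583 and 1068 in F3. P0 was at the bottom, and the 2 libraries of F3 lay apart, one near F2 and one near F1. These genes are near-identical copies, so single values are uncertain and the sum is the safer measure. Of 55 other sperm genes tested (64 in the table) 41 were lower and none higher, among them nspd-1 (0.794 and 1.03 CPM in P0, 6.26 to 22 CPM later, log2 -3.91 ± 0.31) and the sperm chromatin gene smz-1 (-2.31 ± 0.23). ssp-9 and ssp-16, of the sperm-specific family related to the major sperm proteins, were lower by similar amounts (-3.36 ± 0.33 and -3.25 ± 0.36). The filter passed some of these genes through the later generations alone, where they were high. Without P0 replicate 1, without P0 replicate 2 and in the 30-library fit the major sperm protein count was 27, 29 and 27.

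Eggshell, maternal, meiosis and P granule lists differed much less, with median log2 fold changes from 0.0102 to 0.122. The early zygotic list had a median of 0.684. Of 18 eggshell and oocyte surface genes 6 were higher in P0 (9.97% of all genes were) and 2 lower (16.3%). Log2 fold changes over this list ran from -0.39 to 0.375. The eggshell gene cpg-3 had 356 and 334 CPM in P0 and 251 to 299 CPM later (0.32 ± 0.06), and the oocyte surface gene egg-5 252 and 238 CPM in P0 and 264 to 386 CPM later (-0.37 ± 0.07). Of 23 maternal RNA-binding and polarity genes 4 were higher and none lower, and of 22 early zygotic genes tested (52 in the table) 8 were higher and none lower. pes-10, a marker of early embryonic transcription, had 2.96 and 2.38 CPM in P0 and 0.379 to 1.53 CPM later (1.67 ± 0.40). None of 29 meiosis genes was called in edgeR's test. At an unadjusted p under 0.05 the list gave 2 genes, and DESeq2 called 0. him-1, the most abundant of them and a chromosome cohesion gene, had 262 and 251 CPM in P0 and 231 to 278 CPM later. The P granule list was split, with the embryonic granule gene meg-1 higher (0.55 ± 0.07) and the germline helicase gene glh-1 lower (-0.69 ± 0.07), 4 members each way. The linker histone gene his-24 had 107 and 111 CPM in P0, 20.2 and 15.8 in F1, 27.6 and 32.9 in F2, and 64.2 and 71.7 in F3 (1.71 ± 0.09), so F3 was nearest to P0. In the 30-library fit no eggshell, maternal or higher P granule gene was called, and 2 early zygotic genes were, with pes-10 not called there or without P0 replicate 1. Neither cpg-3 nor egg-5 was called without one of the P0 libraries, replicate 1 for cpg-3 and replicate 2 for egg-5.

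Of 52 small RNA pathway genes tested, 12 were higher in P0 (9.97% of all genes were) and 4 lower (16.3%), so that lower genes were a smaller share of the list than of all genes. The Argonaute gene ppw-1 had 237 and 244 CPM in P0 and 133 to 176 CPM later (log2 0.70 ± 0.06), and the Argonaute genes sago-2 (1.16 ± 0.26) and nrde-3 (0.34 ± 0.08) were also higher. csr-1, an essential germline Argonaute gene, had 296 and 291 CPM in P0 and 346 to 416 CPM later (-0.34 ± 0.06). set-25, a histone H3 lysine 9 methyltransferase gene linked to heritable silencing, had 54.5 and 56.2 CPM in P0 and 28.1 to 35.8 CPM later (0.85 ± 0.09), which made it the most changed of the 4 heterochromatin genes that were higher among 22. Of 6 tested genes reported as targets of nuclear RNA interference, rnh-1.3 alone was called, lower in P0 (-0.91 ± 0.24), near the share over all genes. It had 4.55 and 3.65 CPM in P0, 7.77 and 8.59 in F1, 10.7 and 10.6 in F2, and 3.86 and 6.76 in F3. P0 and F3 thus overlapped, and none of the list was called against F3. With one or the other P0 library left out 3 small RNA genes were called higher, and in the 30-library fit 2 were, sago-2 and nrde-3 not among them. The call of csr-1 was also lost in that fit, sago-2 was not called by DESeq2, and rnh-1.3 was not called with one or the other P0 library left out.

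Muscle filament genes were lower in P0 by similar factors against each later generation. Of 27 tested, 23 were lower (16.3% of all genes were) and none higher (median log2 -0.85). Against F1, F2 and F3 alone 24, 21 and 22 were lower (19%, 11.1% and 13.4% of all genes), with medians of -0.89, -0.73 and -0.83. The body wall myosin gene unc-54 had 1920 and 1824 CPM in P0, 3769 and 3780 in F1, 4077 and 3668 in F2, and 3900 and 4732 in F3 (-1.09 ± 0.09). The second body wall myosin gene, myo-3 (-0.92 ± 0.08), and the troponin T gene tnt-2 (-1.18 ± 0.08) were likewise below all later libraries. Summed CPM of the list were 11160 and 10940 in P0 and between 18370 and 23100 in the later libraries. The count of lower genes was 22 without P0 replicate 1, 23 without P0 replicate 2 and 18 in the 30-library fit.

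Genes of protein synthesis and turnover were lower by small amounts. Of 81 cytosolic ribosomal protein genes 67 were lower in P0 (16.3% of all genes were) and none higher, with a median log2 fold change of -0.36, and 65 of the 81 had both P0 libraries below all later ones (16.8% of all genes had). rps-25, a subunit of the small ribosomal particle, had 643 and 625 CPM in P0 and 850 to 1116 CPM later (-0.59 ± 0.08). Of 31 proteasome genes 26 were lower and none higher (median -0.31), and of 33 aminoacyl-tRNA synthetase genes 9 were lower and none higher. The proteasome subunit gene pbs-7 had 133 and 128 CPM in P0, 180 and 179 in F1, 210 and 215 in F2, and 169 and 176 in F3 (-0.52 ± 0.06), highest in F2. Without P0 replicate 1, without P0 replicate 2 and in the 30-library fit 41, 14 and 41 ribosomal protein genes, 12, 6 and 2 proteasome genes and 2, 1 and 3 synthetase genes were lower.

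**Figure D2:**
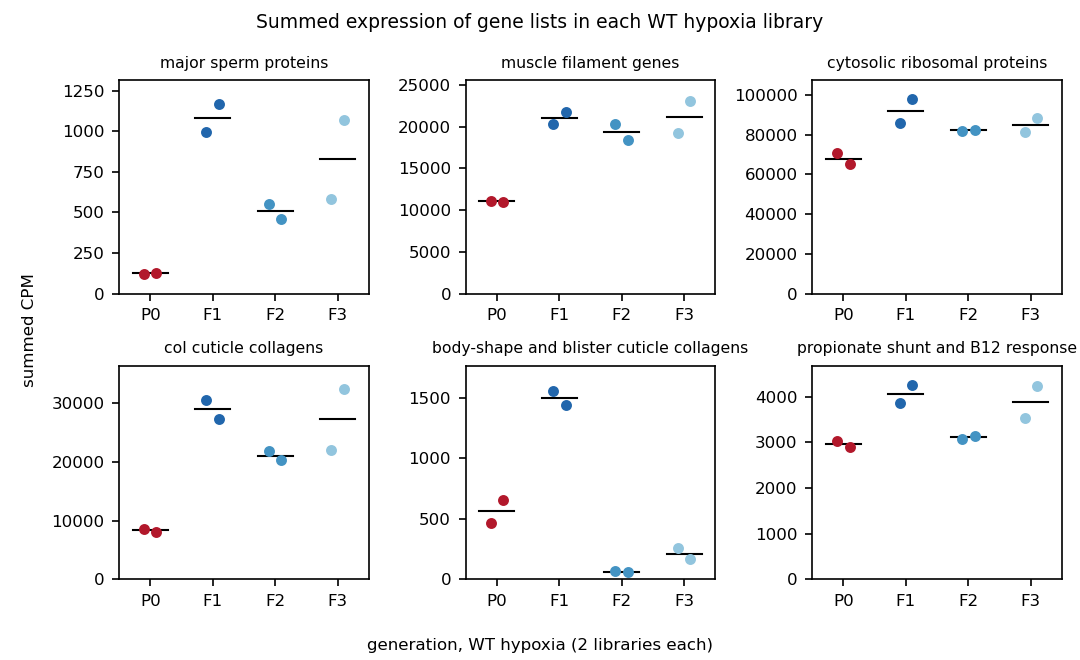
Summed CPM of 6 gene lists in each WT hypoxia library, by generation; points are libraries and bars are means of 2. Major sperm protein, muscle and ribosomal protein sums are lowest in P0, while body-shape collagens are highest in F1 and lowest in F2.

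Cuticle genes did not separate P0 from the descendants as a block, and the later generations differed among themselves. The adult and larval cuticle is made of collagens, and mutations in one set of them change body shape or blister the cuticle. Of 117 col collagen genes tested 96 were lower in P0 than in F1 (19% of all genes were) and 2 higher (9.77%), with a median log2 fold change of -2.19. Against F2, 31 were lower (11.1%) and 49 higher (9.22%), with a median of 1.24. Against F3, 57 were lower (13.4%) and 17 higher (4.13%), with a median of -0.96. Against all 3 together 50 were lower (16.3%) and 19 higher (9.97%). col-81 had 12.5 and 17.4 CPM in P0, 479 and 447 in F1, 160 and 138 in F2, and 277 and 555 in F3 (-4.36 ± 0.26), and the libraries did not overlap. col-139 (-4.26 ± 0.24), col-159 (-4.11 ± 0.25) and col-129 (-4.06 ± 0.22) were also below all later libraries, as the rule that named these genes required. col-7 had the largest decrease of the genes named by rule, with 0.144 and 0.793 CPM in P0, 66.4 and 28.4 in F1, 3.47 and 3.79 in F2, and 29.4 and 47.8 in F3 (-5.34 ± 0.56). Without P0 replicate 1, without P0 replicate 2 and in the 30-library fit 40, 53 and 31 col genes were lower, and 19, 5 and 1 higher.

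The 20 body-shape and blister collagen genes ranked F1, P0, F3 and F2 from high to low. Their summed CPM were 469 and 655 in P0, 1558 and 1439 in F1, 68.3 and 61.2 in F2, and 259 and 166 in F3. In P0, 11 were lower than in F1 (19% of all genes were) and 1 higher (9.77%). By contrast 19 were higher than in F2 (9.22%) and 14 higher than in F3 (4.13%), with none lower. dpy-13, a dumpy collagen gene, had 60.6 and 77.2 CPM in P0, 259 and 287 in F1, 3.82 and 1.99 in F2, and 22 and 12.9 in F3. Its log2 fold change was -1.99 ± 0.18 against F1, 4.55 ± 0.28 against F2 and 1.97 ± 0.20 against F3, none of them called in the 30-library fit. The contrast with the mean of the later generations called 18 of the 20 higher in P0, a figure that averages opposite signs and was 0 in the 30-library fit and where F1 to F3 formed 1 group, where dpy-13 had the opposite sign. Molting regulators and apical matrix genes, 31 tested, had 14 higher and 1 lower, with 2 higher in the 30-library fit and 1 where F1 to F3 formed 1 group. The protease inhibitor gene mlt-11 had 50 and 65.1 CPM in P0, 48.4 and 36 in F1, 5.42 and 4.55 in F2, and 22.1 and 11.2 in F3, with no call in the 30-library fit. fbn-1, which encodes a fibrillin-like matrix protein, was higher than in each later generation, with 18.7 and 17.9 CPM in P0 and 4.8 to 10.2 CPM later (1.45 ± 0.16).

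**Figure D3:**
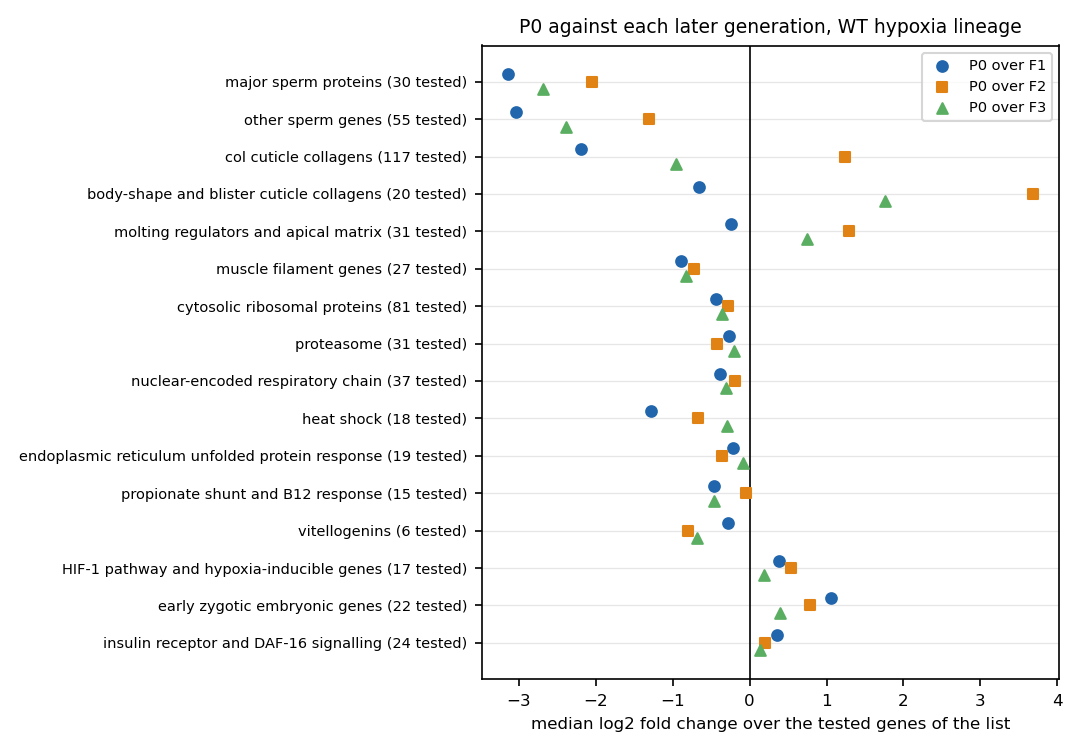
Median log2 fold change of P0 over F1, F2 and F3 for 16 gene lists of the WT hypoxia lineage; the 3 comparisons share the P0 libraries. Sperm and muscle medians lie below 0 in all 3, while both collagen lists change sign between F1 and F2.

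Of 63 innate immunity genes tested (107 in the table) 27 were lower in P0 (16.3% of all genes were) and 5 higher (9.97%), lys-7 among the higher ones. The saposin-like gene spp-4 had 15.7 and 15.2 CPM in P0, 33.8 and 37.6 in F1, 45.7 and 40.4 in F2, and 57.2 and 50.4 in F3 (log2 -1.50 ± 0.11). Of 94 C-type lectin genes tested (264 in the table) 22 were higher and 15 lower, the second count being near the share over all genes, and clec-150 had 265 and 254 CPM in P0 and 72.9 to 94.9 CPM later (1.67 ± 0.08). Of 22 oxidative stress and metal genes 7 were lower and none higher, with the catalase gene ctl-2 (-0.9977 ± 0.09) and the glutathione S-transferase gene gst-4 (-1.91 ± 0.26) below all later libraries. Of 29 glutathione S-transferase genes 9 were lower and 2 higher. The intestinal list was split, 6 each way among 22, with the cathepsin B-like protease gene cpr-4 at 312 and 304 CPM in P0 and 66 to 144 CPM later (1.78 ± 0.09) and the microvillar actin gene act-5 lower (-0.67 ± 0.10). In the 30-library fit act-5 was not called, 9 innate immunity genes were lower and 7 lectin genes higher. The counts without P0 replicate 1 and without P0 replicate 2 were 15 and 16 for lower innate immunity genes, 15 and 12 for higher lectin genes, and 4 and 4 for lower glutathione S-transferase genes.

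In neurons and signalling, 13 of 88 neuropeptide genes tested (111 in the table) were higher in P0 (9.97% of all genes were) and 7 lower (16.3%), and 4 of 20 neuronal marker genes were higher and none lower. The proprotein convertase gene egl-3, which processes neuropeptides, had 113 and 111 CPM in P0 and 72.4 to 96.9 CPM later (log2 0.45 ± 0.08). The epidermal antimicrobial peptide gene nlp-33 had 6.5 and 7.06 CPM in P0 and 13.8 to 24.4 CPM later (-1.64 ± 0.20). Of 24 genes of insulin receptor and DAF-16 signalling 8 were higher and none lower, and against F1 13 were higher (9.77% of all genes were) and 1 lower. Autophagy genes, 25 tested, had 2 higher and 1 lower, but 13 higher and none lower against F1. Insulin-like peptide genes, 13 tested, had 1 higher. In the F-box family, 26 of 181 tested (390 in the table) were higher and 12 lower. Without P0 replicate 1 and without P0 replicate 2 the higher neuropeptide genes numbered 2 and 3 and the higher F-box genes 9 and 5. In the 30-library fit egl-3 was not called, and 0 neuronal marker genes were higher.

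Among other lists, read against 9.97% of all genes higher and 16.3% lower, nuclear hormone receptor genes had 12 higher and 3 lower of 162, cytochrome P450 genes 7 and 6 of 45, and UDP-glucuronosyltransferase genes 5 and 11 of 52. Hedgehog-related genes had 15 higher and 7 lower of 51, cell cycle genes 5 higher of 37, histone genes 2 higher and 3 lower of 43, and apoptosis genes 2 higher and 1 lower of 16. Lipolysis and fat oxidation genes had 4 higher and 5 lower of 23, fatty acid synthesis genes 2 higher and 1 lower of 19, and uterine genes 3 higher and 1 lower of 5. Several of these counts were near or below the shares over all genes, and many were smaller under other settings. Without P0 replicate 1, without P0 replicate 2 and in the 30-library fit the higher receptor genes numbered 3, 5 and 4, the lower UDP-glucuronosyltransferase genes 4, 6 and 4, the higher hedgehog-related genes 12, 2 and 1, and the higher cell cycle genes 0, 1 and 0. None of 11 tested pals genes, which respond to intracellular pathogens, was called in edgeR's test. At an unadjusted p under 0.05 there were 0, and DESeq2 called 0. The 30-library fit called 1 pals gene higher and testing without a filter 3, each with more genes tested. Calls also appeared where an F1, F2 or F3 library was left out.

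Among the descendants, F1 was compared with the mean of F2 and F3, and F1 against F3 alone was not tested. Across all genes the mean r was 0.98 between F1 and F2, 0.9895 between F1 and F3, and 0.9912 between F2 and F3. Of the genes tested 2342 (17.6%) differed, 1767 (13.3%) being higher in F1 and 575 (4.32%) lower. Collagens had the largest medians on the higher side, with 76 of 117 col genes (median log2 2.33) and 17 of 20 body-shape genes (median 3.73). The median over all genes tested was -0.0142. Of the sperm lists, 23 of 30 major sperm protein genes and 37 of 55 other sperm genes were also higher in F1. All 6 vitellogenin genes were lower. col-49 had 81.8 and 75.9 CPM in F1, no count in F2, and 4.6 and 1.69 CPM in F3. For col-175 the levels were 103 and 107 CPM in F1, 0.0889 and 0 in F2, and 5.7 and 3.6 in F3, so that F2 was at the floor and F3 between. On the lower side, lys-7 (log2 -1.84 ± 0.17), the linker histone gene hil-3 (-1.66 ± 0.17) and the early embryonic gene vet-6 (-1.44 ± 0.28) were lowest in F1. Without F1 replicate 2 the count was 1245, without F2 replicate 2 1528 and in the 30-library fit 700, where hil-3 and vet-6 were not called.

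F2 and F3 differed in 1443 genes (10.8%), with 377 (2.83%) higher in F2 and 1066 (8.01%) lower. Of 18 heat shock genes 9 were higher in F2 and 2 lower, and 13 of 31 proteasome genes were higher and none lower. cdr-4, a cadmium-responsive gene, had 187 and 192 CPM in F2 and 24.2 and 27.8 in F3 (log2 2.87 ± 0.10), hsp-70 differed by 2.78 ± 0.27 and hsp-16.1 by 2.73 ± 0.17. The intestinal peptide transporter gene pept-1 was low in F2 alone, at 3.64 and 4.55 CPM in F2 and 48.5 and 69.8 in F3 (-3.85 ± 0.20), with 63.9 and 67.4 CPM in P0 and 50.9 and 55.9 in F1. The fatty acid elongase gene elo-2 followed it, at 26.7 and 14.5 CPM in F2 and 77.6 and 152 in F3 (-2.47 ± 0.29). Of the col genes 63 were lower in F2 and none higher. Without F2 replicate 1, without F2 replicate 2 and without F3 replicate 2 the count was 750, 305 and 782. The 30-library fit of edgeR called none, cdr-4, hsp-70 and pept-1 included, with 1714 genes at an unadjusted p under 0.05, while DESeq2 on the 8 libraries called 1295.

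**Figure D4:**
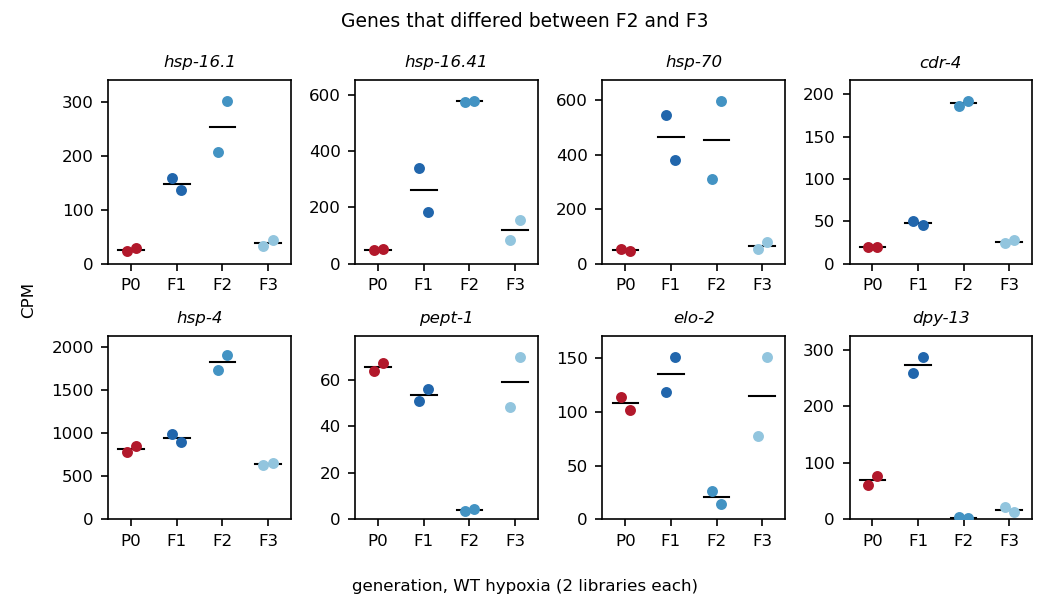
CPM of 8 genes in each WT hypoxia library, by generation; points are libraries and bars are means of 2. The hsp-16 genes, cdr-4 and hsp-4 peak in F2, hsp-70 is high in F1 and F2, and pept-1, elo-2 and dpy-13 are lowest in F2.

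The normoxia lineage shows which of these differences appear between P0 and later generations without the hypoxia label. It was compared over P0, F1 and F3, since the F2 WT normoxia columns appeared to hold means that include the F1 and F3 WT normoxia libraries. P0 differed from F1 and F3 in 2871 of 14819 genes under hypoxia (19.4%), 799 being higher (5.39%) and 2072 lower (14%). Under normoxia it differed in 8602 (58%), 4346 being higher (29.3%) and 4256 lower (28.7%), and the log2 fold change of P0 over F1 and F3 differed between the oxygen labels in 4664 genes (31.5%), being higher under hypoxia in 2558 (17.3%) and lower in 2106 (14.2%). Without P0 hypoxia replicate 1 the count was 3084, without P0 normoxia replicate 2 2733 and in the 30-library fit 2391. All 30 major sperm protein genes tested were lower in P0 under normoxia too, with a median log2 fold change of -2.98 in the hypoxia lineage over the same generations and -5.32 in the normoxia lineage, and in 27 the decrease was smaller under hypoxia. Muscle filament genes had medians of -0.88 under hypoxia and -0.56 under normoxia, with 20 of 27 lower in P0 under normoxia. Cytosolic ribosomal protein genes had -0.39 and -0.57, with 63 of 81 lower under normoxia. acdh-1 was low in P0 of both, with 0.955 and 0.558 CPM in P0 and 18 to 39 CPM in F1 and F3 under normoxia, and its difference between lineages was not called (0.74 ± 0.47, edgeR adjusted p = 0.246). lys-7 too was high in P0 of both, at 95.1 and 101 CPM under normoxia. The 2 P0 normoxia libraries, on which this comparison rests, stood apart among the 30 libraries. They had the highest TMM factors (1.365 and 1.395) and the lowest mean r with WT hypoxia libraries (0.957 and 0.944). vit-4 stood at 736 and 272 CPM there, against 9585 and 9156 in P0 hypoxia. The reason was not tested.

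The 12 genes named by rule for the greatest P0 excess under hypoxia fell into different patterns under normoxia. That rule took only genes with a class symbol, at least 5 CPM and no overlap. In lys-7, dod-3, dod-21, col-41, cyp-13A5, pqn-60 and nhx-6 both P0 normoxia libraries also lay above all 4 of F1 and F3 normoxia. col-41 had 39.7 and 19.4 CPM in P0 normoxia and 2.86 to 6.36 CPM in F1 and F3, cyp-13A5 27.1 and 38.3 CPM in P0 and 1.79 to 6.38 CPM later, and dod-21 12.1 and 9.49 CPM in P0 and at most 0.31 CPM later. nhx-6 kept that order at a far lower level, with 0.562 and 0.279 CPM in P0 normoxia and at most 0.0895 CPM in F1 and F3. Its difference between lineages was 4.93 ± 1.71 on the log2 scale (edgeR adjusted p = 0.042), a fitted value that rests on groups of 1 count and was not called in the 30-library fit or in 6 of the 12 fits that left out 1 library. The other 5 genes did not have that order. catp-2 had at most 0.0778 CPM in any normoxia library, and hsp-12.3 overlapped between generations. hrg-1 had 2.42 and 4.47 CPM in P0 normoxia and 5.37 to 11.8 CPM in F1 and F3. comt-4 had 1.29 and 0.782 CPM in P0 and 7.34 to 13.4 CPM in F1 and F3 under normoxia, the opposite order, and its difference between lineages was 10.2 ± 0.55 on the log2 scale (edgeR adjusted p = 8.43e-08). hrg-7 had 8.99 and 6.7 CPM in P0 normoxia and 12.7 to 21.2 CPM in F1 and F3, a difference of 4.27 ± 0.31. In catp-2, nhx-6, comt-4, hrg-7, hsp-12.3, hrg-1, dod-3 and pqn-60 both P0 hypoxia libraries lay above every normoxia library compared. In lys-7, dod-21, col-41 and cyp-13A5 they did not. The order against later hypoxia libraries was a condition of the choice of these genes. Oocyte and germline lists also differed, with 20 of 23 maternal genes and 15 of 18 eggshell genes lower in P0 under normoxia (28.7% of all genes were). In 20 of 23 and 15 of 18 the P0 level relative to F1 and F3 was higher under hypoxia (in 17.3% of all genes it was). Heat shock genes had a median of -0.65 under hypoxia and 0.13 under normoxia. Their relative P0 level was lower under hypoxia in 10 of 19 genes (14.2% of all genes) and higher in 4 (17.3%). hsp-16.41 had 178 and 231 CPM in P0, 510 and 320 in F1, and 43.3 and 54.3 in F3 under normoxia, so F1 was high and F3 low there as well.

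In the hrde-1 hypoxia lineage, the same generations were compared. Of 13979 genes tested, the log2 fold change of P0 over later generations differed between strains in 447 (3.2%), being higher in WT in 309 (2.21%) and lower in 138 (0.987%), while 5681 (40.6%) differed between P0 and later generations in hrde-1 itself, 19.1% higher and 21.6% lower. The count was 112 without P0 WT replicate 2, 220 without P0 WT replicate 1, 291 without P0 hrde-1 replicate 1 and 200 without P0 hrde-1 replicate 2. The 30-library fit called 1 gene, with 1121 genes at an unadjusted p under 0.05. In hrde-1 worms catp-2 had 8.94 and 46.2 CPM in P0 and at most 0.204 CPM later, and nhx-6 had 8.33 and 56 CPM in P0 and at most 0.204 CPM later. Their difference between strains was not called. comt-4 had 16.9 and 20.1 CPM in P0 and 1.02 to 2.39 CPM later, so that its log2 fold change of P0 over later generations was greater in WT by 3.59 ± 0.42 (edgeR adjusted p = 0.000174). Major sperm protein (median -2.65 in WT and -2.31 in hrde-1) and muscle genes (-0.85 and -1.07) were lower in P0 of both strains, with no member called different. Cuticle collagens differed between strains: 11 of 20 body-shape collagens and 51 col genes were higher in P0 of WT relative to later generations, and 2 col genes lower. dpy-13 had 20.2 and 25.9 CPM in P0, 237 and 176 in F1, 29.2 and 33.5 in F2, and 138 and 422 in F3 of hrde-1, and differed between strains by 3.92 ± 0.46. In hrde-1 worms its lowest level was thus in P0, whereas in WT it was in F2. The differences of comt-4 and dpy-13 between strains were not called in the 30-library fit. F2 of hrde-1 was high for hsp-16.41, at 591 and 527 CPM, and low for pept-1, at 7.59 and 20.8 CPM, as F2 of WT was.

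**Figure D5:**
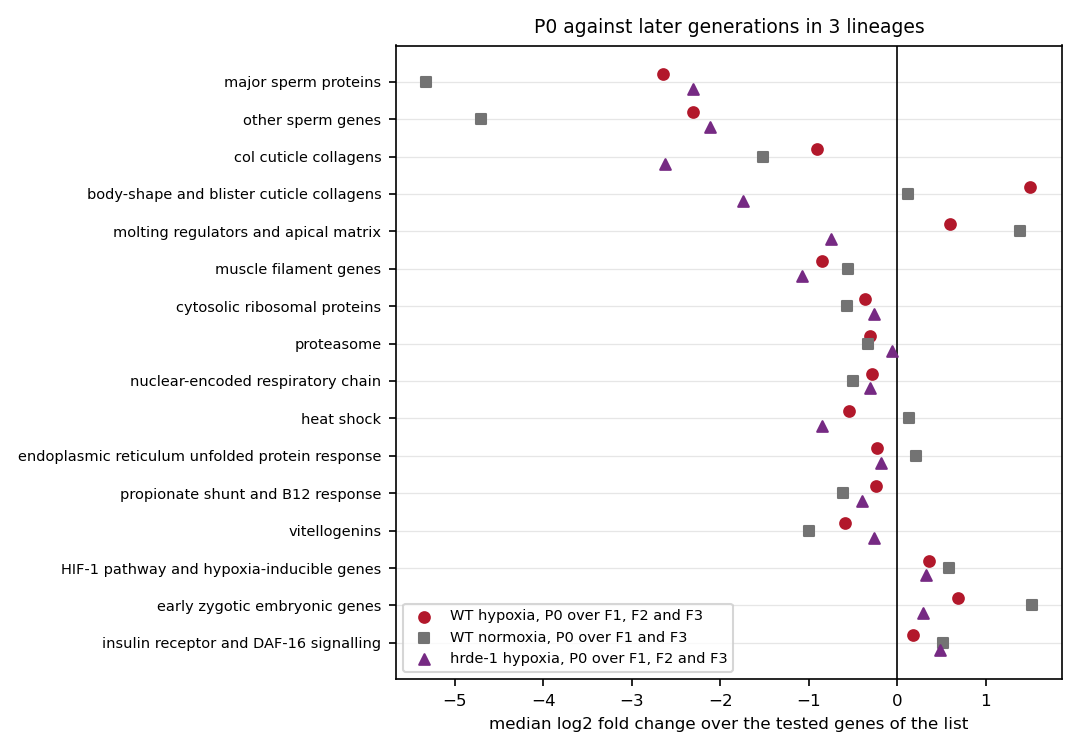
Median log2 fold change of P0 over later generations for 16 gene lists in the WT hypoxia, WT normoxia (F1 and F3 only) and hrde-1 hypoxia lineages. Sperm, muscle and ribosomal medians lie below 0 in all 3 lineages, whereas body-shape collagens are above 0 in WT hypoxia and below 0 in hrde-1.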

How the data were processed

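Poly(A)-selected RNA of whole C. elegans was sequenced for 16 groups of 2 libraries. The deposited table holds estimated counts for 46904 genes in 32 columns, the authors' values before normalization. Tools named, with no role or order, per the submitters' processing notes are RSEM, featureCounts, Bowtie2, cutadapt 2.5 and edgeR. Neither a genome build nor the use of strand is given in the sources used. Since most values are whole but some are not, each value was rounded to the nearest integer for the tests, where the design had assumed raw counts.

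The 2 F2 WT normoxia columns were left out because they appeared to hold means that include the F1 and F3 WT normoxia libraries. With a tolerance of 0.05 counts, 3 times the column value lay below F1 plus F3 of the same replicate number in 0 genes. Against F1 plus F3 of the other replicate number it lay below in 5130 and 1941 genes. Of the nonzero values in replicates 1 and 2, 69.98% and 71.11% were not whole. CPM used TMM library sizes over the other 30 libraries. Genes passing edgeR's filterByExpr were tested with edgeR 4.0.16 (R 4.3.3) quasi-likelihood models, with Benjamini-Hochberg adjustment over all genes tested and a threshold of 0.05. The fits used the 8 libraries of the WT hypoxia lineage, 14 libraries for hypoxia against normoxia and 16 for WT against hrde-1, with 1 mean per group. Standard errors are the log2 fold change divided by the root of its F statistic. With P0 or later counts at or under 3, a ratio with an exact (Clopper-Pearson) 95% interval was given. Precision is limited by totals of 10636796 to 16555982 counts and by 2 libraries per group.

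Alternatives were DESeq2 1.42.0 (Wald test, and its size factors), testing without a filter or at 5 CPM in 2 libraries, 30 libraries in the fit, F1 to F3 as 1 group, the replicate number as a block, normalization within the fitted libraries and leaving out each library. The code was tested on simulated data.

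The groups, the 50 gene lists and the rule for named genes were chosen with earlier results of these data known. Against all later generations the rule names the 12 genes per direction with a class symbol, at least 5 CPM in a group, a call and no overlap, that have the greatest change, the 3 of any name, and up to 4 called members of each list per direction. For the other comparisons it names 6 per direction. The text gives a part of these, and other genes it gives, such as those of the F2 pattern, were chosen after their values were seen. Gene positions are from the WBcel235 annotation (Ensembl), which holds 46817 of the gene IDs.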

Additional observations from a re-analysis of the deposited data

Results flagged for a closer look

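The following genes had a log2 fold change of P0 over F1 and F3 that differed between the hypoxia and normoxia lineages of WT, by edgeR's test of the difference itself over all genes. catp-2 differed by 12.7 ± 2.58 (SE), with 0 to 2 counts in its normoxia groups, and the call was lost without F1 normoxia replicate 2. comt-4 differed by 10.2 ± 0.55, the cuticle collagen gene bli-1 by 8.40 ± 0.93, dao-4 by 8.25 ± 1.51, the receptor-family gene srw-68 by 7.09 ± 2.16, rol-1 by 7.07 ± 0.87, nhx-6 by 4.93 ± 1.71 and hrg-7 by 4.27 ± 0.31, all higher under hypoxia. Higher here refers to the fold change, not to the level. srw-68 held 4 to 7 counts in each WT hypoxia group, and its difference came from 109 and 298 counts in F1 and F3 normoxia. The call of srw-68 was lost with one or the other P0 hypoxia library left out, and that of rol-1 in the 30-library fit. Lower under hypoxia were clec-3 (-8.31 ± 1.22), the fatty acid desaturase gene fat-7 (-5.61 ± 0.53), cyp-25A1 (-5.44 ± 0.45), fipr-24 (-5.35 ± 0.61), dhs-20 (-5.15 ± 0.37), cut-3 (-4.98 ± 0.98) and dod-21 (-3.61 ± 0.92), the last not called in the 30-library fit or without F1 hypoxia replicate 1. The sizes for catp-2, dao-4 (0 counts in P0 normoxia) and srw-68 (1 in P0 normoxia) are fitted values that depend on the prior count. So are those for clec-3 (0 in F1 normoxia), dod-21 (1 in F1 normoxia) and nhx-6 (1 in F1 and 1 in F3 normoxia). Few counts were also held by bli-1 (5) and rol-1 (4) in P0 normoxia. The same holds for fat-7 (4) and fipr-24 (5) in F1 normoxia and comt-4 (4) in F1 hypoxia. clec-3 also held 4 counts in P0 hypoxia, and dao-4 held 1 in F3 hypoxia.

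Between the WT and hrde-1 hypoxia lineages, the log2 fold change of P0 over F1 to F3 was higher in WT for col-49 (5.79 ± 0.81), nas-38 (5.39 ± 0.90), col-110 (5.30 ± 0.88), col-175 (5.02 ± 0.71), abu-12 (5 ± 0.65), bli-2 (4.96 ± 0.97), dpy-13 (3.92 ± 0.46) and comt-4 (3.59 ± 0.42). It was lower in WT for irld-53 (-2.24 ± 0.46), irg-4 (-1.85 ± 0.43), ugt-63 (-1.78 ± 0.43), dod-24 (-1.51 ± 0.19), irg-5 (-1.43 ± 0.35) and fbxa-83 (-1.42 ± 0.28). None of these was called in the 30-library fit, and the calls of bli-2, col-110, irld-53, irg-4, ugt-63, irg-5 and fbxa-83 were lost without P0 WT replicate 2. For abu-12, bli-2, col-49, col-110, col-175 and nas-38 F2 WT held 0 to 3 counts, nas-38 had 1 count in P0 hrde-1 and irld-53 had 2 and 3 counts in F1 and F2 hrde-1, so these sizes also depend on the prior count.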

How the results depend on the processing

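With the spread estimated over 30 libraries, the number of genes called was 1423 for P0 against all later generations, 1834 against F1, 480 against F2, 876 against F3, 700 for F1 against F2 and F3, 0 for F2 against F3, 2391 for hypoxia against normoxia and 1 for WT against hrde-1; the cause was not tested. With F1 to F3 as 1 group P0 differed from them in 814 genes. A filter of 5 CPM gave 1468 genes for F1 against F2 and F3, and no filter gave 2227 for F2 against F3 and 986 for WT against hrde-1. Leaving out 1 library at a time gave 1666 to 3795 genes for P0 against all later generations, 2333 to 3578 against F1, 1322 to 1473 against F2, 1213 to 2388 against F3, 1245 to 2786 for F1 against F2 and F3, 305 to 1722 for F2 against F3, 2733 to 5144 for hypoxia against normoxia and 112 to 992 for WT against hrde-1. A fit with an arm of 1 library assumes that it varies like the other groups. Numbers were shared across generations but did not pair the samples (correlations of deviations from -0.146 to 0.0272), and the replicate block gave 3112 genes for P0 against all later generations and 1151 for F2 against F3. With crossed numbers in the block, chosen after seeing the data, P0 against F1 gave 3999 and F2 against F3 1643. dpy-13 had a log2 fold change of -0.50 with F1 to F3 as 1 group, and him-1, not called, ranged between -0.0565 and 0.00851 over the libraries left out, with 0.00485 without P0 replicate 2. DESeq2 size factors and normalization within the fitted libraries changed none of the 130 results on named genes, whereas the 30-library fit ended the call of 51. Taking F1 to F3 as 1 group bears only on the results for P0 against all later generations. It ended the call of 23 of those, among them hsp-16.1, hsp-16.41, hsp-70, his-24 and icl-1. The call of dpy-13, whose sign turned, was lost there as well (edgeR adjusted p = 0.883). At 2 libraries per group, a lost call shows limited precision as well as the fit chosen.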
